A study of Mus musculus with 17 samples.

Results

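The 9 genes described here belong to the Slc6 family of sodium- and chloride-coupled transporters and were taken by gene name from the deposited count table, which holds 48795 genes. They are Slc6a6, Slc6a8, Slc6a9, Slc6a12, Slc6a13, Slc6a18, Slc6a19, Slc6a20a and Slc6a20b, and all 9 were found. mRNA was sequenced from kidney cortex in 17 libraries of 4 groups. The 5 WT cortices were wild type. The 5 GCERAΔ cortices came from mice with homozygous floxed ATF4 alleles and a Ggt/CreER transgene, which is meant to delete ATF4, the transcription factor of the integrated stress response, in proximal tubules after tamoxifen. Tamoxifen at 20 mg/mL was given to GCERAΔ mice on 2 days from 6 weeks of age, and the mice were killed about 1 month later after a 16 h fast. The 3 TRACK cortices came from a transgenic mouse model of kidney cancer, and the 4 cortices labelled TRACK-ATF4 KO are described as that model with the ATF4 knockout. Age, tamoxifen treatment and fasting of the WT, TRACK and TRACK-ATF4 KO mice are not stated separately in the sources used here. Each library is labelled as a mouse of its own, although the extraction protocol speaks of 3 to 4 mice per cohort, so that libraries of the WT and GCERAΔ groups may share a mouse. WT 1 and 2, GCERAΔ 2 and 3 and TRACK-ATF4 KO 2 and 3 were treated as possible repeats in an alternative, n counts libraries, and the p-values measure the spread between libraries.

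Slc6 carriers move small solutes into the cell against their gradient by coupling them to sodium. In the proximal tubule, the brush border members Slc6a19, Slc6a18 and Slc6a20a take back filtered neutral amino acids, glycine and proline, and Slc6a20b is a paralog of Slc6a20a. Slc6a6, Slc6a12 and Slc6a13 carry taurine, betaine and GABA, solutes that kidney cells also use to balance osmotic pressure, Slc6a8 carries creatine and Slc6a9 carries glycine.

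Libraries held between 53688512 and 71364561 counts on genes. Atf4 stood at 84.5 ± 9.81 CPM in the WT and at 65.4 ± 9.3 CPM in the GCERAΔ group (SD, n = 5 each, log2 fold change -0.38, SE 0.11, adjusted p = 0.0218, edgeR), with overlapping values. It was not lower in the cortices labelled TRACK-ATF4 KO, with 92.4 ± 10.0 CPM (n = 4) against 83.6 ± 8.93 CPM in TRACK (n = 3, adjusted p = 0.367). A count per gene cannot show which exons of Atf4 were lost, and cells other than proximal tubules make up part of the cortex. The proximal tubule markers Lrp2, Cubn, Slc34a1 and Hnf4a summed to between 5170 and 6700 CPM in WT cortices. All 5 WT libraries held Xist, from 149 to 418 CPM, and no count of the Y-linked Ddx3y, whereas the 12 other libraries held at most 6.07 CPM of Xist and at least 49.8 CPM of Ddx3y. Genotype and this difference cannot be told apart in the comparisons with WT, while TRACK-ATF4 KO, TRACK and GCERAΔ cortices did not differ in it. Of 7 kidney genes known to be higher in male mice, 7 rose in GCERAΔ and 7 in TRACK against WT. Of 4 known to be higher in female mice, 3 fell in each. The part of this difference in the results of the members was not tested. Libraries also fell into 2 kinds by their share of counts on processed pseudogenes, and the TRACK libraries were all of the kind to which only 1 WT library belonged. GCERAΔ 4 and 5 stood apart from GCERAΔ 1 to 3. With group and library kind removed by a linear fit, their log2 values correlated at 0.50 with each other and at -0.78 to -0.47 with GCERAΔ 1 to 3.

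Several members lie side by side in the genome (GRCm38, GENCODE M21). Slc6a13 (chr6:121300227-121337733, plus strand) ends 5342 bases before Slc6a12 (chr6:121343076-121365775, plus strand). Slc6a18 (chr13:73661752-73678023, minus strand) and Slc6a19 (chr13:73679745-73704865, minus strand) are 1721 bases apart. Slc6a20b (chr9:123590800-123632565, minus strand) and Slc6a20a (chr9:123634770-123678885, minus strand) are 2204 bases apart, and no protein-coding gene lies between the members of any of these 3 pairs. Slc6a6 (chr6:91684053-91759066, plus strand), Slc6a8 (chrX:73673150-73682502, plus strand) and Slc6a9 (chr4:117834506-117875198, plus strand) stand alone.

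The longest coding sequences of Slc6a20a and Slc6a20b were 91.9% identical, against 75.0% for Slc6a12 and Slc6a13 and at most 69.7% for the other pairs of members. Slc6a20a and Slc6a20b shared 623 stretches of 51 bases, the stated length of each read of a pair, which is 15.09% of those in Slc6a20a and 7.14% of those in Slc6a20b. A read pair with both reads in shared stretches could not be assigned to 1 of these genes. A coding stretch of 60 bases follows, from base 97 of the Slc6a20a and base 226 of the Slc6a20b coding sequence (GENCODE M21 transcripts), with the 3 bases that differ in capitals. It was taken as a window with the median number of differences, to show how alike the genes are that moved apart in GCERAΔ cortices.
Slc6a20a: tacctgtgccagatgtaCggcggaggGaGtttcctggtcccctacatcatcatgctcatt
Slc6a20b: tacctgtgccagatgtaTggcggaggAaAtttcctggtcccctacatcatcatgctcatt

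Upstream sequences were found for 6 of the 9 members, in 14 windows of 250 bases before RefSeq starts (GRCm38.p6). The sequences before the starts of Slc6a20a (chr9:123678833-123679082, minus strand) and Slc6a20b (chr9:123632539-123632788, minus strand) are shown because the paralogs behaved differently. Capitals mark GTTAAT, the letters that HNF1 factors of the proximal tubule bind as part of their site, which were found in 2 of the 14 member windows, those of Slc6a20a and, 68 bases before the start, 1 of Slc6a13, and not in the Slc6a20b window. They were found in 6.43% of 32851 windows of all genes.
Slc6a20a upstream: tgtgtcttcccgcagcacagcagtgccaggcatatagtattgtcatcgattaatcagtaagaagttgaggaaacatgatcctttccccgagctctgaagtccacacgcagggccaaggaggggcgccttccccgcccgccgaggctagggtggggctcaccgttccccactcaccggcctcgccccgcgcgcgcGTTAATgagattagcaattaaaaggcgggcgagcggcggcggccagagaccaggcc
Slc6a20b upstream: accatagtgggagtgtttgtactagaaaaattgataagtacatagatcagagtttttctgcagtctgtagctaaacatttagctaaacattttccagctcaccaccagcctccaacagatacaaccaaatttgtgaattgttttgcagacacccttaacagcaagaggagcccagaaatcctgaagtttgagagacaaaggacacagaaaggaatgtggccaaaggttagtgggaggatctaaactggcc

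The third sequence lies before the first RefSeq start of Slc6a12 (chr6:121342324-121342573, plus strand), and its capitals mark a match to TonE, the element bound by the tonicity factor NFAT5, 75 bases before the start.
Slc6a12 upstream: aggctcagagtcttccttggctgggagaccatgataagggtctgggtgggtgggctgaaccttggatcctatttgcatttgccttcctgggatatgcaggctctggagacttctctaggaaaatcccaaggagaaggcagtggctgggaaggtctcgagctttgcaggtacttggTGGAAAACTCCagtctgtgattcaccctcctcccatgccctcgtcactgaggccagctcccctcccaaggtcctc
TonE was also matched in 1 window of Slc6a13 on the opposite strand, and in 4.31% of all windows. The composite element of ATF4 and its partners (TGATGNAAN) was found in 0 of the 14 member windows and in 3.44% of all windows. Its core TGATG, which lies inside it, was found in 5 of the 14 windows, those of Slc6a9, Slc6a12 and Slc6a19, and in 34.5% of all windows. ACGTG, the core of the hypoxia response element, was found in 1 Slc6a13 window and in 16.6% of all windows. Both strands were searched for each motif.

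Per length, the WT cortex held most Slc6a18 mRNA among the 9, at 233 ± 42.5 FPKM (n = 5), followed by Slc6a19 at 119 ± 22.3 and Slc6a6 at 73.7 ± 7.52 FPKM. Slc6a8 (48.4 ± 5.4 FPKM) and Slc6a13 (37.3 ± 8.26 FPKM) came next and overlapped, and the other neighbours in this order did not. The lowest were Slc6a20b at 16.0 ± 1.86, Slc6a20a at 8.38 ± 0.493, Slc6a9 at 2.85 ± 0.584 and Slc6a12 at 1.43 ± 0.461 FPKM. By group means Slc6a18 stayed the highest in every group and Slc6a12 the lowest. Slc6a18 overlapped Slc6a6 in TRACK, where TRACK 3 held 139 FPKM of Slc6a6 and 124 FPKM of Slc6a18. In TRACK and in TRACK-ATF4 KO cortices Slc6a6 ranked above Slc6a19, with overlapping values in TRACK-ATF4 KO. Summed over the 9 genes, the level was 540 ± 36.6 FPKM in WT, 447 ± 12.2 in GCERAΔ, 414 ± 19.7 in TRACK and 339 ± 26.8 in TRACK-ATF4 KO cortices, with Slc6a18 giving 43.0%, 33.0%, 37.7% and 37.4% of it.

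**Figure D1:**
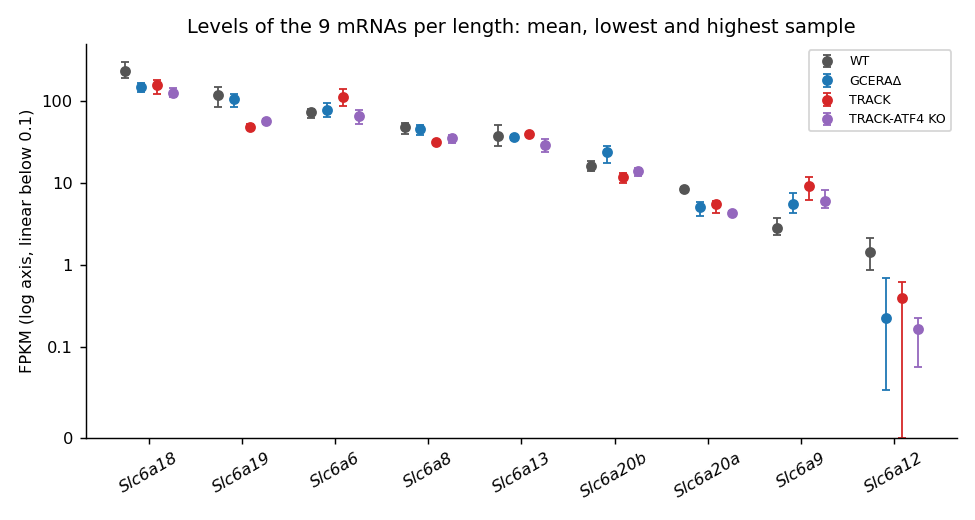
Level of each member in FPKM (log axis, linear below 0.1), as the mean of a group with a bar from its lowest to its highest sample, ordered by the WT mean. The mean of Slc6a18 lies highest in every group, with its bar overlapping that of Slc6a6 in TRACK, and Slc6a12 lies lowest, with 1 TRACK sample at 0.

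GCERAΔ and WT cortices differ in the ATF4 genotype and also in Xist and Y-linked transcripts. In their comparison 5 of the 9 members passed the test (55.6%), against 27.6% of all 11581 genes tested. Glycine carrier Slc6a9 and Slc6a20b rose, 2 of 9 against 14.1% of all genes, and Slc6a12, Slc6a18 and Slc6a20a fell, 3 of 9 against 13.5%. The groups did not overlap for 4 members, against 20% of all genes. The median log2 fold change of the members was -0.11, and that of all genes 0.

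Slc6a20a, the sodium-coupled proline carrier SIT1, was at 34.0, 31.4, 37.0, 34.7 and 34.1 CPM in the WT cortices. It was at 20.5, 20.9, 16.3, 23.8 and 23.8 CPM in the GCERAΔ cortices, so that every GCERAΔ sample lay below every WT sample. The log2 fold change was -0.71 (SE 0.09, adjusted p = 0.000255, edgeR).

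Its paralog Slc6a20b was at 135, 120, 161, 126 and 141 CPM in WT. In GCERAΔ cortices it was at 221, 243, 217, 188 and 150 CPM, and only the last of these lay within the WT range. The log2 fold change was 0.57 (SE 0.13, adjusted p = 0.00642, edgeR). Without GCERAΔ 4 and 5, the lowest of the group for Slc6a20b, the change was 0.74 (adjusted p = 0.000183). The ratio of Slc6a20b to Slc6a20a, per length, was 1.90, 1.83, 2.08, 1.73 and 1.98 in WT and 5.17, 5.55, 6.36, 3.77 and 3.02 in GCERAΔ cortices. The neighbours thus moved in opposite directions. Slc6a20b shares 1800 exonic bases with Sacm1l on the other strand, and the strand setting of the counting is not stated. Sacm1l itself was at 102 to 117 CPM in WT cortices and 104 to 135 CPM in GCERAΔ.

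Slc6a18 (B0AT3), a brush border carrier of glycine and neutral amino acids, was at 915, 964, 1320, 843 and 1110 CPM in WT. It was at 564, 589, 650, 712 and 745 CPM in GCERAΔ cortices, all below the lowest WT value, with a log2 fold change of -0.67 (SE 0.12, adjusted p = 0.0022, edgeR). Its neighbour Slc6a19 (B0AT1), the main apical carrier of neutral amino acids and the gene of Hartnup disorder, did not pass the test. It was at 578, 617, 426, 736 and 615 CPM in WT cortices and at 554, 574, 614, 455 and 427 CPM in GCERAΔ (log2 fold change -0.19, SE 0.15, adjusted p = 0.392). Cltrn, the collectrin that brings both carriers to the kidney brush border, stood at 1220 ± 181 CPM in WT cortices and 1680 ± 272 CPM in GCERAΔ (log2 fold change 0.45, adjusted p = 0.0291, edgeR).

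Slc6a9, the glycine carrier GlyT1, was at 16.3, 14.0, 19.0, 11.8 and 12.3 CPM in WT cortices and at 24.3, 24.3, 22.1, 39.3 and 33.9 CPM in GCERAΔ. The groups did not overlap, and the log2 fold change was 0.96 (SE 0.17, adjusted p = 0.00193, edgeR), a fitted fold of 1.95. Without GCERAΔ 4 and 5, the highest of the group, the log2 fold change was 0.69 (adjusted p = 0.00398). In the same comparison 7 of the 10 tested genes known as ATF4 targets fell and 1, Sesn2, rose. Slc6a9 is not on that list, although the paper cites its promoter as associated with ATF4 in cultured HCT116 cells. Slc6a9 shares 1429 exonic bases with Ccdc24 on the other strand, which held at most 0.165 CPM in any library.

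Slc6a12, the betaine carrier BGT1 of the renal medulla, was at 4.01, 3.84, 4.80, 2.68 and 6.48 CPM in WT. GCERAΔ 1 held 2.08 CPM and the other GCERAΔ cortices 0.331, 0.607, 0.262 and 0.159 CPM, all below WT. The log2 fold change was -2.65 (SE 0.60, adjusted p = 0.00696, edgeR), and -3.68 without GCERAΔ 1 (SE 0.41, adjusted p = 0.000134). The urea transporter gene Slc14a2, which is expressed in the medulla, fell by 2.24 on the log2 scale in the same comparison (adjusted p = 0.0137), from 54.6 ± 18.8 to 11.6 ± 11.5 CPM, and GCERAΔ 1 was again the highest GCERAΔ sample, with 30.1 CPM. The thick ascending limb markers Slc12a1, Umod and Kcnj1 fell, 3 of 3, with a summed level of 5380 to 8230 CPM in WT cortices and 3540 to 4850 CPM in GCERAΔ. The principal cell markers Aqp2, Scnn1g and Hsd11b2 fell as well, 3 of 3, from a summed 706 to 786 CPM to 244 to 450 CPM (Aqp2 -1.32, adjusted p = 0.00663). Distal convoluted tubule markers fell, 2 of 3 (516 to 766 and 366 to 493 CPM), as did 1 of 3 intercalated cell markers (177 to 205 and 134 to 166 CPM), and fibroblast markers rose, 3 of 3 (48.8 to 58.1 and 64.1 to 99.3 CPM). Of the proximal tubule markers 0 of 4 passed the test (5170 to 6700 and 5390 to 8530 CPM), and 0 of 2 of its first segment. Of the markers of its last segment 1 of 3 rose (3480 to 4750 and 4190 to 5650 CPM). The part of these cell types in the results of Slc6a12 and the other members was not tested, and in cortex fewer cells of a type and less mRNA per cell cannot be told apart.

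The other 3 members did not pass the test between GCERAΔ and WT. The taurine carrier Slc6a6 was at 624 ± 63.6 CPM in WT cortices and 660 ± 118 CPM in GCERAΔ (log2 fold change 0.07, SE 0.12, adjusted p = 0.691). The creatine carrier Slc6a8 was at 252 ± 28.2 and 236 ± 27.4 CPM (-0.11, SE 0.11, adjusted p = 0.494). Slc6a13 (GAT2), which carries GABA, betaine and taurine, was at 108 ± 24.0 and 105 ± 5.73 CPM (-0.05, SE 0.12, adjusted p = 0.779). Slc6a13 thus stayed within its WT range while its neighbour Slc6a12 fell, and the ratio of Slc6a13 to Slc6a12 per length was 17.8 to 32.2 in WT and 49.7 to 748 in GCERAΔ cortices.

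**Figure D2:**
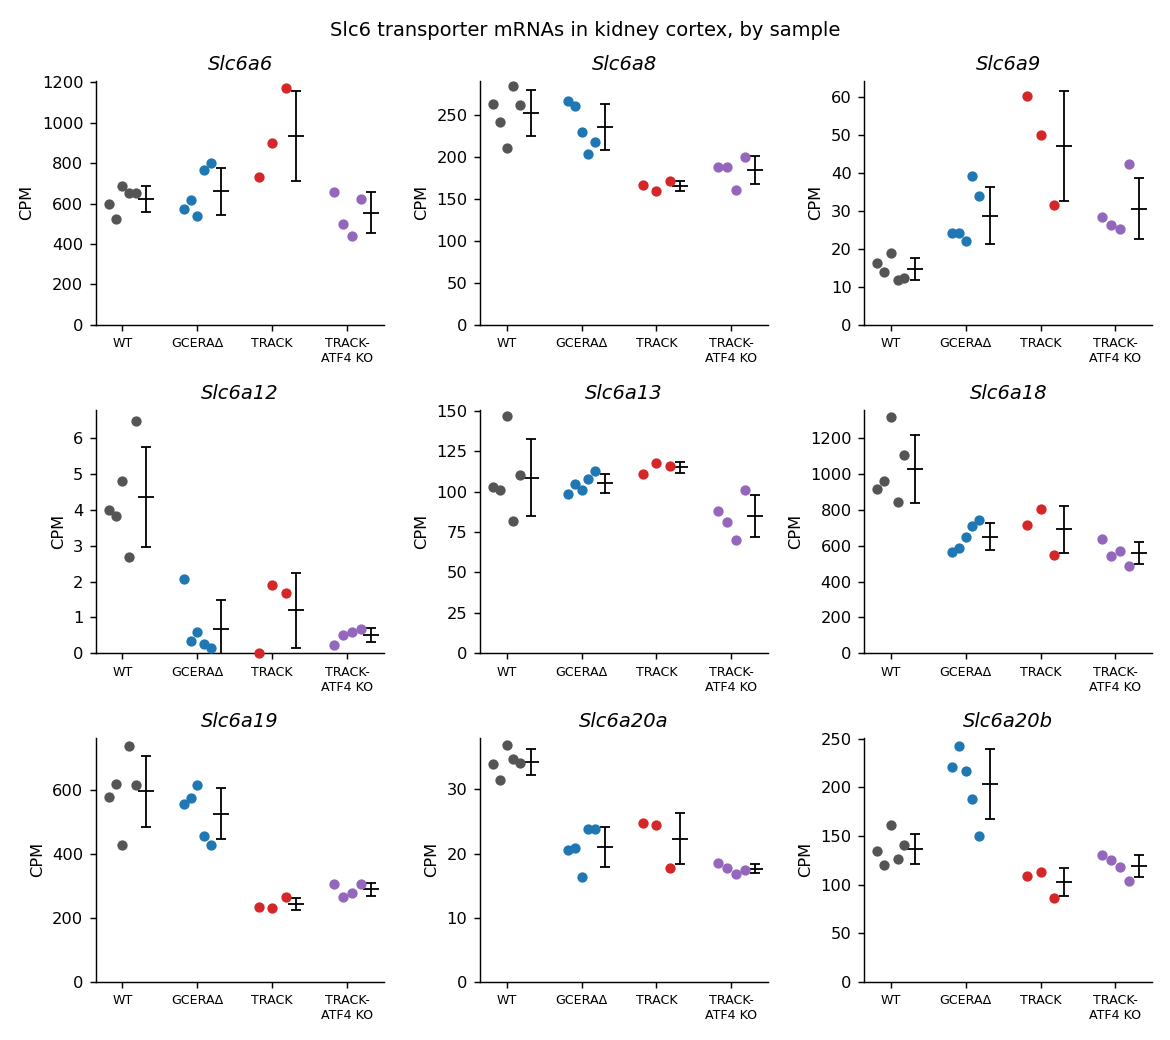
CPM of each member in every sample (points) with the mean and SD of the group (cross and bar, cut at 0), on axes that start at 0. All WT points of Slc6a12, Slc6a18 and Slc6a20a lie above all points of the other groups, and all WT points of Slc6a9 below them.

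Set against all 12 other libraries at once, the 5 WT libraries stood apart for 4 of the 9 members, against 7.51% of 12208 genes. They were higher for 3 members (3.79% of all genes) and lower for 1 (3.72%). Slc6a20a was at 31.4 to 37.0 CPM in WT and at 16.3 to 24.8 CPM elsewhere. Slc6a18 was at 843 to 1320 CPM in WT and at 490 to 805 CPM elsewhere, and Slc6a12 at 2.68 to 6.48 and at most 2.08 CPM. Slc6a9 alone was lower in WT, at 11.8 to 19.0 CPM against 22.1 to 60.2 CPM. These are the libraries that also differ in Xist and Y-linked transcripts.

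TRACK cortices were compared with WT to describe the cancer model. Here 7 of the 9 members passed the test (77.8%), against 45.6% of 11967 genes, and 8 did not overlap, against 44.3% of all genes. Slc6a6 and Slc6a9 rose, 2 of 9 against 23% of all genes, and Slc6a8, Slc6a18, Slc6a19, Slc6a20a and Slc6a20b fell, 5 of 9 against 22.6%. The median log2 fold change of the members was -0.58, and that of all genes -0.01.

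Slc6a19 was at 234, 230 and 266 CPM in the TRACK cortices, below every WT value, with a log2 fold change of -1.29 (SE 0.16, adjusted p = 0.000154, edgeR). Slc6a8 was at 166, 159 and 171 CPM, also below every WT value (-0.61, SE 0.10, adjusted p = 0.000907). Slc6a19 was the gene second most like Slc6a8 in its log2 values over the 17 samples, with a Pearson r of 0.948 after the 0.954 of Sall2. With the means of the 4 groups removed, r of Slc6a8 and Slc6a19 was 0.76. Creatine synthesis and phosphorylation genes fell in the same comparison, 4 of 4 tested, among them Gatm, which makes the creatine precursor and went from 614 ± 66.0 to 111 ± 16.5 CPM (log2 fold change -2.47, adjusted p = 8.56e-07, edgeR).

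Slc6a9 was at 60.2, 49.9 and 31.5 CPM in the TRACK cortices, the highest group mean of this gene at 47.2 ± 14.5 CPM. The log2 fold change against WT was 1.68 (SE 0.20, adjusted p = 0.00014, edgeR), a fitted fold of 3.21. Of the 15 tested ATF4 targets 13 rose and 1 fell in this comparison, with Asns, asparagine synthetase, at 2.48 ± 0.744 CPM in WT and 22.1 ± 6.05 CPM in TRACK.

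Slc6a6 was at 732, 901 and 1170 CPM in TRACK and at 600, 525, 688, 652 and 654 CPM in WT. Every TRACK value lay above the WT values (log2 fold change 0.58, SE 0.14, adjusted p = 0.00717, edgeR). Endothelium markers rose in the same comparison, 3 of 3, from a summed 161 to 189 CPM to 299 to 329 CPM, and fibroblast markers, 2 of 3, from 48.8 to 58.1 CPM to 93.5 to 182 CPM. Their part in the higher Slc6a6 and Slc6a9 was not tested. Slc6a18 at 719, 805 and 550 CPM (-0.58, adjusted p = 0.0133) and Slc6a20a at 24.8, 24.5 and 17.7 CPM (-0.62, adjusted p = 0.00148) overlapped the GCERAΔ values and fell against WT. Slc6a20b was at 109, 113 and 86.5 CPM and fell too (-0.42, adjusted p = 0.0132), so its ratio to Slc6a20a was 2.09 in TRACK 1 and at most 2.34, where the WT ratio reached 2.08. With library kind in the fit, Slc6a18 (-0.49, adjusted p = 0.181), Slc6a20a (-0.50, adjusted p = 0.0585) and Slc6a20b (-0.23, adjusted p = 0.323) no longer passed the test, and 4 of the 9 members did.

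Proximal tubule markers fell in TRACK against WT, 3 of 4, to a summed 3040 to 3350 CPM, below the 5170 CPM of the lowest WT cortex. Of the markers of its first segment 1 of 2 fell (614 to 787 CPM in WT and 390 to 489 CPM in TRACK). Of those of its last segment 1 of 3 rose and 0 fell (3480 to 4750 and 4220 to 5330 CPM). Markers of the distal convoluted tubule (234 to 361 CPM) and of principal cells (355 to 420 CPM) fell too, 3 of 3 each, as did 2 of 3 thick ascending limb markers (3600 to 6180 CPM). Their part in the lower members was not tested. Slc7a9, the light chain of the apical cystine and dibasic amino acid carrier, also fell, from 169 ± 9.37 to 79.3 ± 7.07 CPM (log2 fold change -1.10, adjusted p = 9.75e-06, edgeR).

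Slc6a12 had 0 counts in TRACK 1, which allows up to 0.0555 CPM (3 counts, counting error only), and was at 1.90 and 1.69 CPM in TRACK 2 and 3. All 3 values lay below WT, but the change did not pass the test (-1.86, SE 0.80, adjusted p = 0.0814). It passed in the fit with no FPKM minimum (-1.87, SE 0.62, adjusted p = 0.0371). Without TRACK 1 the log2 fold change was -1.28 and passed (adjusted p = 0.0186). TRACK 1 also held the least Slc14a2, with 0.518 CPM against 35.5 and 33.6 CPM in TRACK 2 and 3.

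**Figure D3:**
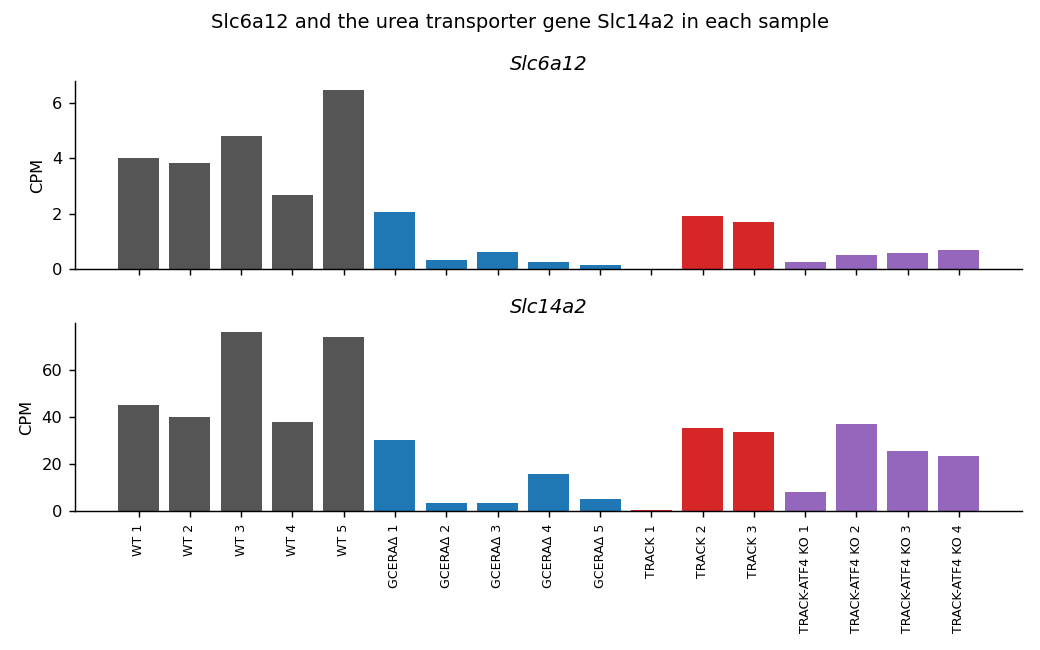
CPM of Slc6a12 (top) and of the urea transporter gene Slc14a2 (bottom) in each of the 17 samples, as bars from 0 coloured by group. GCERAΔ 1 is the highest GCERAΔ sample of both genes, and TRACK 1 is at or near 0 for both.

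Cortices labelled TRACK-ATF4 KO were compared with GCERAΔ cortices, and these libraries did not differ in Y-linked transcripts. The labels give these groups a shared knockout, but Atf4 was at 92.4 CPM in TRACK-ATF4 KO and 65.4 CPM in GCERAΔ cortices. Of the 8 members tested 3 passed, all lower in TRACK-ATF4 KO (37.5%, against 19.2% of 11816 genes, 9.39% higher and 9.79% lower), and 3 did not overlap, against 19.5% of all genes. Slc6a12 was below the minimum level of 1 FPKM in both groups. Slc6a19 was at 306, 266, 277 and 306 CPM, below all GCERAΔ values (log2 fold change -0.85, SE 0.12, adjusted p = 0.00128, edgeR). Slc6a20b was at 130, 125, 118 and 104 CPM and also below all GCERAΔ values (-0.76, SE 0.14, adjusted p = 0.00453).

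Slc6a8 was at 188, 188, 161 and 200 CPM in TRACK-ATF4 KO, below the lowest GCERAΔ value of 203 CPM. Its log2 fold change of -0.34 passed by a small margin (SE 0.10, adjusted p = 0.0425) and missed the threshold in 12 of the alternatives tried, among them the leaving out of GCERAΔ 1, 2 or 3 or of any TRACK-ATF4 KO library (adjusted p of up to 0.129). Slc6a9 was at 28.3, 26.2, 25.3 and 42.5 CPM, within the range of the GCERAΔ cortices (0.11, SE 0.20, adjusted p = 0.762), while 11 of the 14 tested ATF4 targets rose and none fell. Slc6a13 was at 88.0, 81.1, 70.3 and 101 CPM (-0.29, SE 0.10, adjusted p = 0.0664). With the mouse number as a block, Slc6a13 passed the test (-0.27, adjusted p = 0.0425), as it did without TRACK-ATF4 KO 4 (-0.37, adjusted p = 0.022). Libraries of the same number are labelled with different genotypes here, and the numbers coincide with library kind. Over all genes 3770 passed with the block and 2266 without it.

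Slc6a18 (560 ± 61.9 CPM, adjusted p = 0.25), Slc6a20a (17.6 ± 0.725 CPM, adjusted p = 0.153) and Slc6a6 (555 ± 101 CPM, adjusted p = 0.321) did not pass the test against GCERAΔ, and of these Slc6a20a passed without GCERAΔ 3 (-0.31, adjusted p = 0.0392). The fall of Slc6a19 was 1.80-fold in TRACK-ATF4 KO against GCERAΔ and 2.45-fold in TRACK against WT. Of the proximal tubule markers 2 of 4 fell here, to a summed 3270 to 4270 CPM from 5390 to 8530 CPM in GCERAΔ cortices, and 3 of 3 endothelium markers rose, from 188 to 217 CPM to 250 to 275 CPM.

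**Figure D4:**
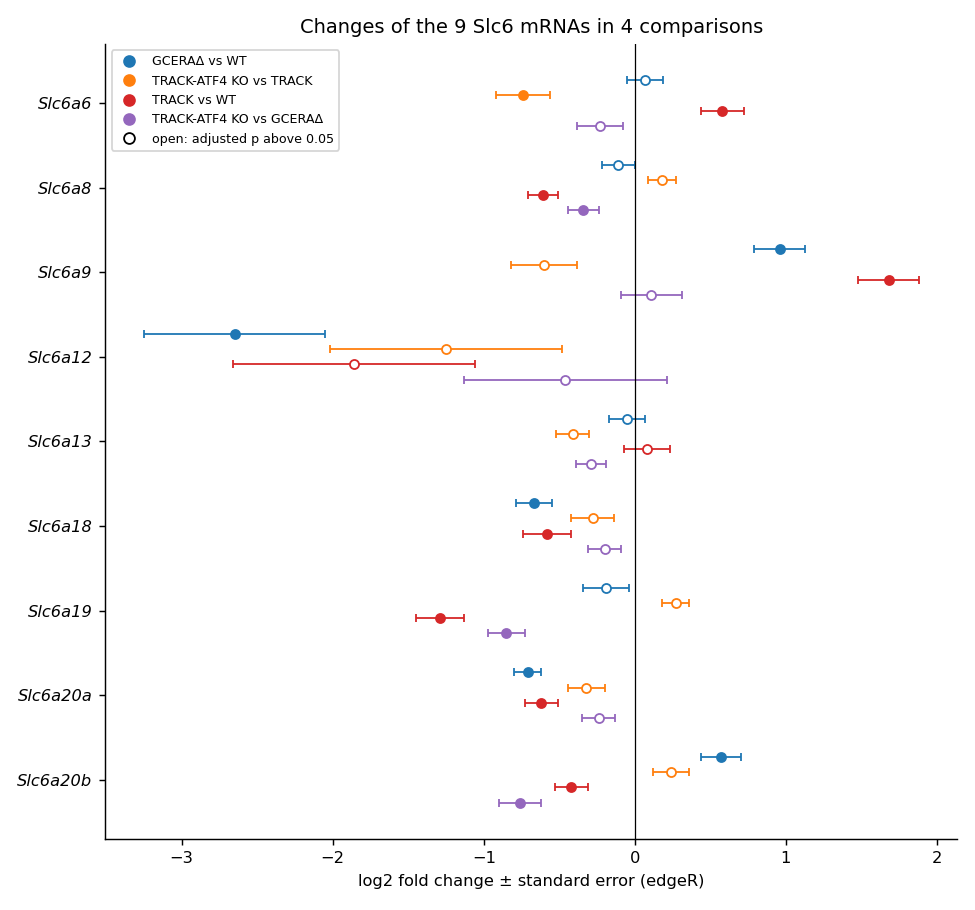
Log2 fold change of each member with its standard error in the 4 comparisons (edgeR), filled where the adjusted p is at most 0.05. Slc6a19 lies left of 0 in both comparisons that add TRACK, and Slc6a9 lies right of 0 in both comparisons with WT.

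TRACK-ATF4 KO was compared with TRACK to ask for the effect of the knockout label in the cancer model. Only Slc6a6 passed the test among the 8 members tested, against 7.09% of 11928 genes (2.81% higher and 4.28% lower), and 3 members did not overlap, against 22.9% of all genes. The median log2 fold change of the members was -0.30, and that of all genes 0.01. Slc6a6 was at 655, 501, 441 and 623 CPM in TRACK-ATF4 KO, below the 732 CPM of the lowest TRACK cortex (-0.74, SE 0.18, adjusted p = 0.0391, edgeR). Without TRACK 2, TRACK 3, TRACK-ATF4 KO 2 or TRACK-ATF4 KO 3 it no longer passed, with an adjusted p of up to 0.114. It also missed the threshold with library totals, with TRACK-ATF4 KO 2 and 3 summed and with library kind in the fit, where 0 members passed. With DESeq2, the tool of the study, 4 members passed, Slc6a6, Slc6a9 (adjusted p = 0.041), Slc6a13 (0.00634) and Slc6a19 (0.0405), and with no FPKM minimum 3 did, Slc6a6, Slc6a9 and Slc6a13.

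Markers of other cell types moved in the same comparison. The fibroblast gene Dcn fell (-1.08, adjusted p = 0.0444), 1 of 3 fibroblast markers, with a summed 93.5 to 182 CPM in TRACK and 69.2 to 95.4 CPM in TRACK-ATF4 KO. The podocyte gene Podxl fell (-0.54, adjusted p = 0.0122), 1 of 3, with a summed 454 to 467 and 304 to 377 CPM. Both adipocyte markers tested fell, with 2.46 to 27.8 and 1.05 to 1.95 CPM, as did 2 of 3 markers of the last proximal tubule segment, with 4220 to 5330 and 3370 to 3690 CPM, while 1 of 3 distal convoluted tubule markers rose, with 234 to 361 and 380 to 534 CPM. Their part in the lower Slc6a6 was not tested.

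Slc6a13 did not overlap either, at 111, 118 and 116 CPM in TRACK and at most 101 CPM in TRACK-ATF4 KO (-0.41, SE 0.11, adjusted p = 0.0559). Slc6a19 did not overlap in the other direction, although the highest TRACK and the lowest TRACK-ATF4 KO cortex both rounded to 266 CPM (0.27, SE 0.09, adjusted p = 0.112). Slc6a9 was at 30.6 ± 8.07 CPM in TRACK-ATF4 KO and 47.2 ± 14.5 CPM in TRACK (-0.60, SE 0.22, adjusted p = 0.132) and overlapped, but passed without TRACK 3 (-0.82, adjusted p = 0.0415) and without TRACK-ATF4 KO 4 (-0.79, adjusted p = 0.0387). Slc6a13 also passed without TRACK-ATF4 KO 4 (-0.50, adjusted p = 0.0188), and Slc6a20a without TRACK 3 (-0.46, adjusted p = 0.0252). Slc6a8, Slc6a18, Slc6a20a and Slc6a20b had adjusted p-values of 0.252, 0.245, 0.141 and 0.241. Slc6a12, below the minimum level in TRACK-ATF4 KO and TRACK, was at 0.236, 0.499, 0.588 and 0.691 CPM in TRACK-ATF4 KO (-1.25, adjusted p = 0.433), and passed only without TRACK 1 (-1.83, adjusted p = 0.0277).

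The ratio of Slc6a20b to Slc6a20a was 3.35, 3.39, 3.36 and 2.83 in TRACK-ATF4 KO, above all TRACK and WT values. In TRACK and WT cortices together it was 1.73 to 2.34, and in GCERAΔ and TRACK-ATF4 KO cortices 2.83 to 6.36. This split was not tested, and how many other gene pairs show one was not counted. In TRACK-ATF4 KO against TRACK neither Slc6a20b (0.24, adjusted p = 0.241) nor Slc6a20a (-0.32, adjusted p = 0.141) passed alone, and Atf4 was not lower there. The ratio of Slc6a18 to Slc6a19 was 1.30 to 3.50 in WT, 1.15 to 1.97 in GCERAΔ, 2.35 to 3.96 in TRACK and 1.82 to 2.36 in TRACK-ATF4 KO cortices, and GCERAΔ and TRACK were the groups that did not overlap.

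**Figure D5:**
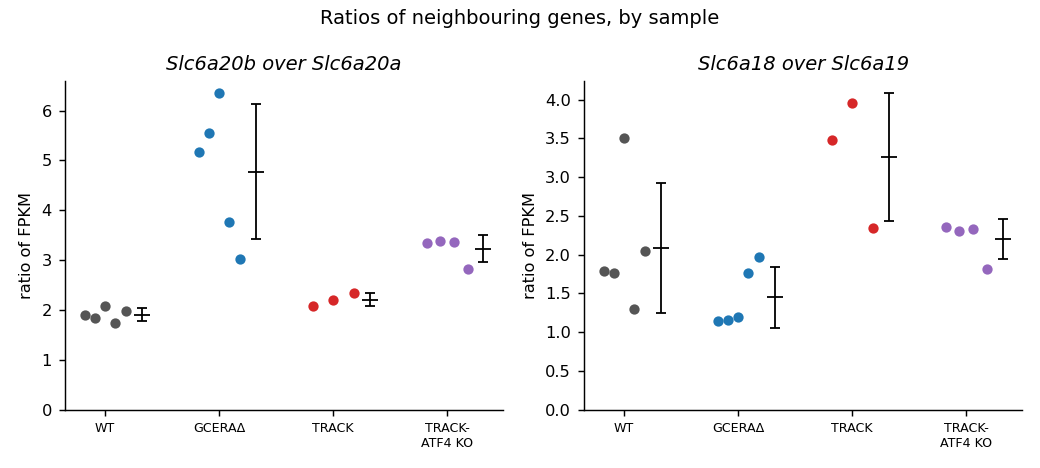
Ratio of the FPKM of neighbouring genes in each sample (points) with the mean and SD of the group (cross and bar). The ratio of Slc6a20b to Slc6a20a is 1.73 to 2.34 in WT and TRACK samples and 2.83 to 6.36 in GCERAΔ and TRACK-ATF4 KO samples, without overlap. The ratios were not tested.

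Whether the knockout label acted differently with and without the transgene was tested as the difference of both contrasts. It passed for 2 of the 9 members, against 25.1% of 12208 genes (12.3% with a higher and 12.8% with a lower value), and both were lower. Slc6a9 differed by -1.56 (SE 0.31, adjusted p = 0.00179, edgeR), rising in GCERAΔ against WT and having a change of -0.60 in TRACK-ATF4 KO against TRACK. Slc6a6 differed by -0.80 (SE 0.22, adjusted p = 0.0149). The difference did not pass for Slc6a20b (-0.33, adjusted p = 0.22) or Slc6a20a (0.40, adjusted p = 0.0772), nor for the other 5 members, with adjusted p-values from 0.107 to 0.406. With library kind in the fit, however, the difference passed for Slc6a20b (-0.57, adjusted p = 0.0287). For Slc6a20a it passed with library totals (0.48, adjusted p = 0.0269) and with an FPKM minimum of 5 (0.44, adjusted p = 0.0433). Without WT 3 it passed for Slc6a13 (-0.49, adjusted p = 0.021) and Slc6a19 (0.55, adjusted p = 0.0295) as well. Only the contrast with WT differs in Xist and Y-linked transcripts, so that the genotype and this imbalance cannot be told apart in the difference either.

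Of the 11 further Slc6 genes in the table, 3 reached the minimum level. Slc6a15, a carrier of branched-chain amino acids and proline, was at 18.2 ± 2.57 CPM in WT cortices and 31.4 ± 11.9 CPM in GCERAΔ (0.78, adjusted p = 0.0309, edgeR). It was at 20.2 ± 2.61 CPM in TRACK and 39.7 ± 4.24 CPM in TRACK-ATF4 KO (1.00, adjusted p = 0.00167). It thus passed the test upwards with the knockout label in both backgrounds, which none of the 9 members did. In GCERAΔ 1 to 3, however, it was at 44.5, 34.2 and 40.1 CPM. In GCERAΔ 4 and 5 it was at 20.4 and 17.7 CPM, within the WT range of 14.1 to 20.5 CPM. Slc6a17, known for neutral amino acid transport in neurons, fell from 39.1 ± 8.68 to 17.6 ± 3.32 CPM in GCERAΔ cortices (-1.15, adjusted p = 0.000303). It was also at 20.8 ± 4.72 CPM in TRACK and 23.1 ± 1.51 CPM in TRACK-ATF4 KO, and its lowest WT value, 31.9 CPM, lay above all other libraries. Slc6a4, the serotonin carrier, did not pass in any of the 4 comparisons.

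The enzymes around these solutes showed a mixed picture in GCERAΔ against WT. Of 11 taurine and betaine genes 4 rose and 2 fell. Csad, which makes the taurine precursor, rose from 155 ± 29.6 to 309 ± 36.3 CPM (0.99, adjusted p = 0.000136), and Bhmt, which uses betaine to remake methionine, fell from 106 ± 34.1 to 5.89 ± 2.0 CPM (-4.18, adjusted p = 2.5e-06). Of 10 hypertonicity and osmolyte genes 5 fell and 1 rose, among them the myo-inositol carrier Slc5a3, from 235 ± 35.1 to 147 ± 25.5 CPM (-0.68, adjusted p = 0.00294). Nfat5, the tonicity factor, did not pass (-0.11, adjusted p = 0.508). Of 13 tested glycine and proline genes 3 rose and 4 fell, and Shmt1, a glycine-forming enzyme, was among those that fell (-0.90, adjusted p = 5.74e-05). In TRACK cortices Csad was at 240 ± 29.2, Bhmt at 3.62 ± 1.47 and Slc5a3 at 153 ± 48.2 CPM. Shmt1 was at 97 ± 3.21 CPM in WT and 48.9 ± 11.1 CPM in TRACK. The TRACK mean of each lay on the same side of WT as that of GCERAΔ. Both groups differ from WT in Xist and Y-linked transcripts, and the part of the ATF4 genotype in these changes was not tested.

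Among all genes, those with the most similar values over the 17 samples were different for each member. They were Ston1 for Slc6a6 (r = 0.907), Mcm2 for Slc6a9 (0.958), Htr1b for Slc6a12 (0.968), Krtcap3 for Slc6a13 (0.865), C8a for Slc6a18 (0.924), Gcat for Slc6a19 (0.953), Ceacam2 for Slc6a20a (0.923) and H2bc4 for Slc6a20b (0.958). C8a was also the second gene for Slc6a20a (0.922), and Slc6a18 and Slc6a20a had r = 0.91 with each other and 0.57 with group means removed. All are Pearson r of log2(CPM + 0.5), and the samples behind them share group, library kind and scaling.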

How the data were processed

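Kidney cortex mRNA libraries (TruSeq Stranded mRNA kit, paired reads stated as 51 bases long, although the lane summary gives some libraries a larger yield per cluster than such reads would) were demultiplexed with bcl2fastq 2.20, trimmed with Cutadapt, aligned to GRCm38 with STAR and counted with HTSeq by the authors, and the deposited values are raw read counts per gene without normalization. The annotation release and the strand setting are not given in the sources used here. All 17 count columns were used.

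Counts were scaled with TMM and compared with the edgeR quasi-likelihood test (edgeR 4.0.16, R 4.3.3), with Benjamini-Hochberg adjustment over all genes tested and a threshold of 0.05. The study's methods name DESeq2, which was run as an alternative (DESeq2 1.42.0). Genes were tested at a mean FPKM of at least 1 in either group, with FPKM computed from merged exon lengths of GENCODE M21, and members below that minimum were read from a second fit without it, over every gene counted at least once. Each of the 4 comparisons used its groups only, and the difference of the knockout contrasts used all 17 samples. CPM and FPKM are on 1 TMM scale over all samples. Adjusted p-values in the text are from edgeR unless DESeq2 is named.

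All members, Atf4, and genes of fixed lists with a role next to a member are named, the latter by role and size of change, as is the gene most like each member by Pearson r, out of 3 ranked for each. The members and lists were chosen with earlier results of these data known. The procedure was tested on simulated counts.

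Libraries with the same mouse number were compared by their deviations from group means. In TRACK-ATF4 KO and GCERAΔ the correlation was 0.39 to 0.55 in 4 of 4 pairs, where the numbers coincide with the 2 library kinds. The main test paired no libraries in any comparison, and the mouse number entered only as an alternative. In the other comparisons it was at most 0.08. Alternatives were DESeq2, RLE factors, library totals, an FPKM minimum of 5 or none, the mouse number as a block, all samples in 1 fit, possible repeat libraries summed, library kind as a covariate, and each library left out. The summing of TRACK-ATF4 KO 2 and 3 and the joint omission of GCERAΔ 4 and 5 were added after seeing the data.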

Additional observations from a re-analysis of the deposited data

Results flagged for a closer look

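Of 27 combinations of a member with a group of 4 or 5 samples, 1 held a sample far from the others, where chance marks about 1 in 20. Slc6a12 in GCERAΔ 1 was at 2.08 CPM, and the next highest GCERAΔ sample was at 0.607 CPM. The TRACK group of 3 was not examined in this way. The change between knockout label and its control differed between the TRACK background and the background without the transgene for Slc6a6, by -0.80 on the log2 scale, and for Slc6a9, by -1.56 on the log2 scale, by the edgeR test of the difference itself.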

How the results depend on the processing

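Of the values of single members outside the left-out libraries, 394 kept their direction and their side of the threshold, 13 came to pass the test, 14 no longer passed and 2 turned direction, and with 1 library left out at a time these numbers were 434, 10, 11 and 4. The values that turned direction passed in neither fit. They were Slc6a6 in GCERAΔ against WT (-0.11 without GCERAΔ 4 and 5, and 0.00 to 0.13 with 1 library left out), Slc6a8 there (0.01 without GCERAΔ 4 and 5), Slc6a13 there (-0.14 to 0.07 with 1 library left out) and, in TRACK-ATF4 KO against GCERAΔ, Slc6a9 (-0.09 to 0.25) and Slc6a12 (-0.71 to 0.55). In TRACK-ATF4 KO against TRACK, where 1 member passed, 4 passed with DESeq2, 3 with no FPKM minimum, and 0 with library totals, with TRACK-ATF4 KO 2 and 3 summed as possible repeats, or with library kind in the fit, and 0 to 3 passed with 1 library left out. In the fits with 0, Slc6a6 had an adjusted p of 0.0547, 0.0898 and 0.0928, and the cause was not tested. In TRACK against WT 4 members passed with library kind in the fit in place of 7, and 7 to 8 with 1 library left out. For the difference of the knockout contrasts 2 to 4 passed with 1 library left out, the 4 without WT 3. With library totals, with an FPKM minimum of 5 and with library kind in the fit, 3 passed in each. In GCERAΔ against WT 5 members passed in each alternative but the FPKM minimum of 5, under which 4 of the 8 members tested passed.

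With the mouse number as a replicate block, 5 members passed in GCERAΔ against WT, 1 in TRACK-ATF4 KO against TRACK (Slc6a9 with -0.75 in place of Slc6a6), 5 in TRACK against WT, 4 in TRACK-ATF4 KO against GCERAΔ and 2 for the difference. Outside the comparison of TRACK-ATF4 KO with GCERAΔ, libraries with the same number did not deviate together. In TRACK against WT, Slc6a18 (adjusted p = 0.0574) and Slc6a20b (0.0835) missed the threshold with the block.

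Over all genes, calls moved by more than 1.5 times in GCERAΔ against WT (3198, with the block 2106), in TRACK-ATF4 KO against TRACK (846, with DESeq2 1562, with repeats summed 498, with library kind 462, and 379 to 1424 with 1 library left out), in TRACK against WT (5458, with the block 3431, with library kind 2776) and in TRACK-ATF4 KO against GCERAΔ (2266, with the block 3770, with repeats summed 1168, and down to 1427 with 1 library left out). A minimum of 5 FPKM also lowered the number of genes tested. With it 3438 of 6842 genes passed in TRACK against WT, in place of 5458 of 11967. For the difference 2041 of 7064 passed, in place of 3070 of 12208. At a group size of 3 to 5, and at under 1 FPKM for Slc6a12, small changes of single members could not be told from the spread between samples.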
